A study of Homo sapiens with 9 samples.

Results

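The integrin genes ITGA2, ITGA3, ITGA5, ITGA6, ITGAV, ITGB1, ITGB4, ITGB5, ITGB6 and ITGB8 were followed through RNA-seq counts of the colorectal cancer cell line LIM1215. They were taken by symbol and are 10 of the 58920 gene names in each count file. Genes whose counts summed to at least 10 over the libraries, 19102 in all, were tested, and all 10 members were among them. LIM1215-R1 and LIM1215-R2 are resistant populations that were raised from LIM1215 in parallel and independently of each other, with rising concentrations of cetuximab, an antibody against the EGF receptor. They are mixed populations and not single clones. LIM1215-parental was carried alongside without cetuximab. All 3 lines were grown in RPMI medium with fetal bovine serum and penicillin-streptomycin, and RNA came from untreated cultures. Each line had 3 libraries. The study calls these replicates technical, so the p-values measure only the spread between these libraries, and a difference of culture or harvest cannot be told apart from a difference between the lines.

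Integrins are receptors of the cell surface that join an alpha and a beta subunit and tie the cell to the matrix outside it. The beta1 subunit pairs with many alpha subunits, among them alpha2, which binds collagen, alpha3 and alpha6, which bind laminins, and alpha5, which binds fibronectin. The beta4 subunit pairs with alpha6 and anchors epithelial cells to laminin in hemidesmosomes. Among the members, the alphaV subunit takes beta1, beta5, beta6 or beta8 as its partner, while beta3, another partner, is not a member. The pairs of alphaV with beta6 and beta8 can release active TGF-beta from its latent form.

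Total counts lay between 13737416 and 18725014 per library, and the 10 genes took 0.2% to 0.243% of them. Levels are given as CPM, a library's counts rescaled to a common library size after TMM scaling, and 3 counts in a library equal 0.158 to 0.217 CPM. Libraries of the same line differed by more than sampling noise, with a chi-square per degree of freedom of 1.89 to 6.58 over genes. Of 11 markers of colorectal epithelium, 10 were tested and KRT20 had 0 counts in every library. Their summed level was 13184 to 13547 CPM in LIM1215-parental, 16534 to 16821 in LIM1215-R1 and 15001 to 15404 in LIM1215-R2. KRT8 and KRT18, keratins of simple epithelia, made up most of this sum. Of the 10 markers, 4 rose and 5 fell in either resistant line. Among all genes tested, 14.0% rose and 13.4% fell in LIM1215-R1, and 12.3% rose and 11.6% fell in LIM1215-R2. The markers had a median log2 fold change of -0.19 in LIM1215-R1 and -0.22 in LIM1215-R2. EPCAM, a surface protein of epithelial cells, was among those that fell (-0.26 and -0.32). The sums of 9 fibroblast, 8 leukocyte and 5 endothelial markers stayed at or below 3.19, 0.795 and 0.722 CPM, with PDGFRA, PTPRC and KDR among the genes without a count. The part of these markers in the results was not tested.

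Against LIM1215-parental, ITGA5 was the member with the largest change in either resistant line, 28.1-fold higher in LIM1215-R1 and 23.7-fold higher in LIM1215-R2. Of the others, ITGA2, ITGA3 and ITGB4 were higher in both lines, by 1.23-fold to 1.5-fold. ITGB1 was lower in both, though its call in LIM1215-R1 was lost in several alternative fits. ITGB5 was lower in LIM1215-R2, at 0.713 of the parental level. ITGB6 was 1.97-fold higher in LIM1215-R1, while its 1.38-fold change in LIM1215-R2 did not pass. ITGB8 was 1.5-fold higher in LIM1215-R2. Changes were called at an adjusted p of at most 0.01 in edgeR's quasi-likelihood test, adjusted over every gene tested by the Benjamini-Hochberg method. A called gene whose log2 fold change reached 1.5 in size is termed a differentially expressed gene (DEG). The comparisons with LIM1215-parental share the parental libraries. In these bulk samples, a change in the share of cells that express a gene and a change in its RNA per cell cannot be told apart.

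In LIM1215-R1 against LIM1215-parental, 5 members were higher (ITGA2, ITGA3, ITGA5, ITGB4, ITGB6), 2 were lower (ITGA6, ITGB1) and 3 did not pass. Of all genes tested, 14.0% were higher and 13.4% lower. The median log2 fold change was 0.18 over the members and -0.011 over all genes. ITGA5 was the only one of the 10 members that was a DEG, as were 5.14% of all genes. In LIM1215-R2 against LIM1215-parental, 5 members were higher (ITGA2, ITGA3, ITGA5, ITGB4, ITGB8), 2 were lower (ITGB1, ITGB5) and 3 did not pass, while 12.3% of all genes were higher and 11.6% lower. The median was 0.38 over the members and -0.004 over all genes. ITGA5 was again the only member that was a DEG, with 4.82% of all genes in that class. The shares of all genes include genes with only 10 counts in total, for which a call is harder to reach. The members held 939 to 149103 counts each. They were chosen with earlier results of these data known, and they are not all integrin genes. ITGA1 and ITGA9, which are not among them, were lower in both lines.

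**Figure D1:**
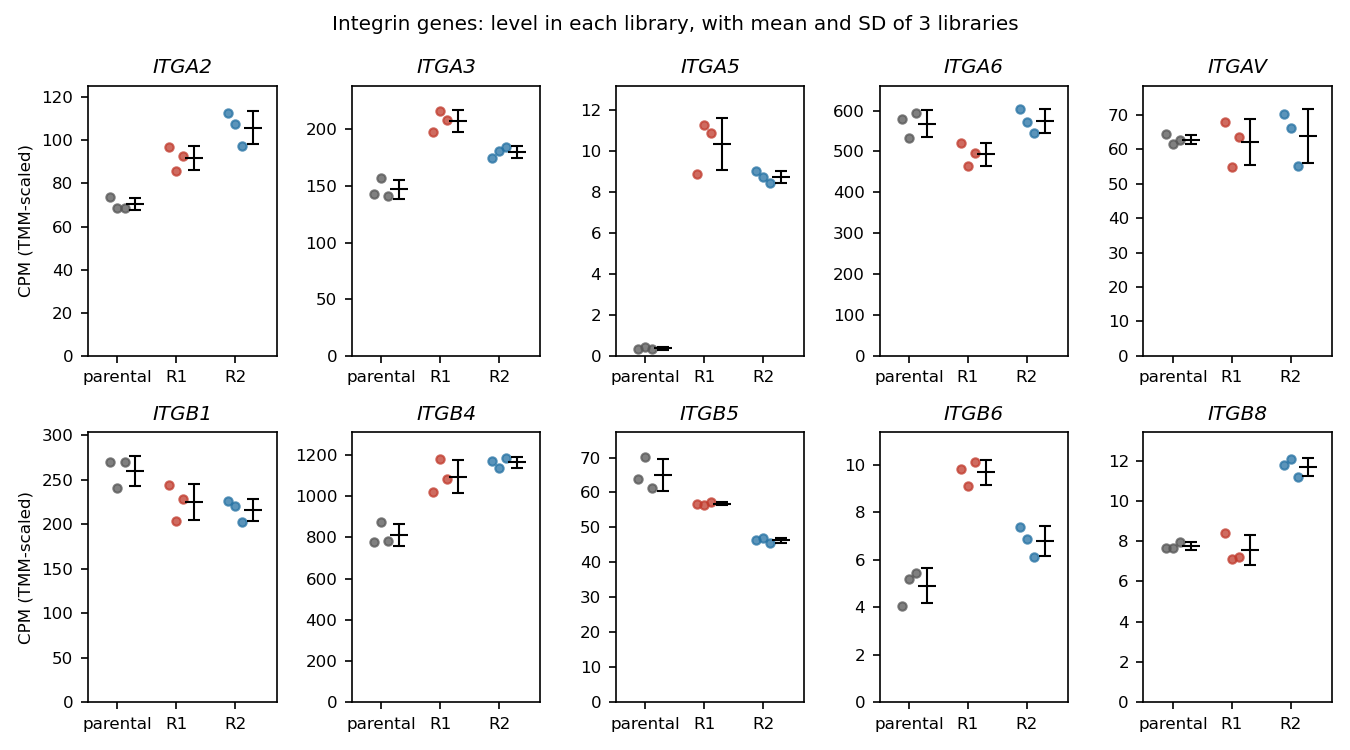
Level of each integrin gene in CPM (TMM-scaled, linear axis from 0) in each library, by line. Points are libraries, and bars are the mean and SD of 3 libraries. ITGA5 rises from 0.367 CPM to 10.4 and 8.73 CPM, whereas the groups of ITGAV overlap.

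ITGA5 lies on chromosome 12 from 54395261 to 54419266 on the minus strand (hg38) and encodes the alpha5 chain of the fibronectin receptor. Its counts were 6, 6 and 6 in the parental libraries, 145, 180 and 174 in those of LIM1215-R1, and 152, 141 and 129 in those of LIM1215-R2. Every resistant library thus held more than 100 counts and every parental library fewer than 10. On the CPM scale these were 0.367 ± 0.060 for the parental line, 10.4 ± 1.29 for LIM1215-R1 and 8.73 ± 0.306 for LIM1215-R2 (mean ± SD, n = 3 each). In edgeR's quasi-likelihood test the log2 fold change was 4.81 (SE 0.219, adjusted p = 4.51e-16) in LIM1215-R1 and 4.57 (SE 0.225, adjusted p = 2.56e-15) in LIM1215-R2. The fold rests on 18 parental counts in all.

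Promoter sequences of the RefSeq annotation (GRCh38.p14), the 250 bases before the start of the gene, are shown for the members with the largest increases in LIM1215-R1, which are ITGA5 (chr12:54419267-54419516, minus strand) and ITGB6 (chr2:160200273-160200522, minus strand). Capitals mark matches to GGAATG, a motif of TEAD factors, and to GGGCGG, a motif of SP1, on either strand.

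ITGA5: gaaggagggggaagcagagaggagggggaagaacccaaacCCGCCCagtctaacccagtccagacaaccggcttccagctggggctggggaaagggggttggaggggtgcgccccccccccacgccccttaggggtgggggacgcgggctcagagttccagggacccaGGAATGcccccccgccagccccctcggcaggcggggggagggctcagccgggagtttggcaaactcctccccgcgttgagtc

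ITGB6: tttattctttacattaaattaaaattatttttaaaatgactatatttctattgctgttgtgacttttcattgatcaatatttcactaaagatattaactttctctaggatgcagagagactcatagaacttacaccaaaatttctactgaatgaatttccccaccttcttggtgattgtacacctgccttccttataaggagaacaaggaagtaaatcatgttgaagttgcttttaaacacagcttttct

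The ITGA5 promoter had a GC content of 70.0% and held GGAATG once, 82 bases before the start, and GGGCGG once on the other strand, 210 bases before the start. The ITGB6 promoter had a GC content of 30.0% and matched neither motif. TGANTCA, a motif of AP-1, was searched as well and was found in neither. Of 8 members with a promoter in the table, 0 held TGANTCA, 2 (ITGA5, ITGB1) held GGAATG and 5 held GGGCGG. ITGB8, counted for GGGCGG, had a window (chr7:20330650-20330899, plus strand) inside the span given for the gene below and not before its start. Among 27305 promoters of the same length, 6.6%, 11.9% and 42.3% held these motifs. A match is a match of letters and no measured binding site. The table had no entry for ITGA3 and ITGB4.

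ITGA2 (chromosome 5, 52989352 to 53094779), the collagen-binding alpha2 chain, measured 73.9, 68.7 and 68.8 CPM in the parental libraries. Its levels were 96.8, 85.7 and 92.9 CPM in LIM1215-R1 and 113, 108 and 97.6 CPM in LIM1215-R2. All resistant libraries lay above all parental ones, and those of LIM1215-R2 above those of LIM1215-R1. The log2 fold change was 0.38 (SE 0.0619, adjusted p = 1.51e-05 in edgeR's quasi-likelihood test) in LIM1215-R1 and 0.59 (SE 0.0614, adjusted p = 1.09e-08) in LIM1215-R2.

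ITGA3 (chromosome 17, 50056110 to 50090481), a laminin-binding alpha chain, measured 143, 157 and 141 CPM in LIM1215-parental. It reached 198, 216 and 208 CPM in LIM1215-R1 and 174, 181 and 184 CPM in LIM1215-R2, with no overlap between any of the groups. The order was LIM1215-parental, LIM1215-R2, LIM1215-R1. The log2 fold change was 0.50 (SE 0.0508, adjusted p = 7.01e-09, edgeR's quasi-likelihood test) in LIM1215-R1 and 0.29 (SE 0.0510, adjusted p = 3.93e-05) in LIM1215-R2. With a library's dependence on GC content and transcript length taken out, a choice made after seeing the data, these were 0.32 and 0.17 and still passed.

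ITGA6 (chromosome 2, 172427336 to 172506459), the alpha chain shared by the beta1 and beta4 laminin receptors, measured 578, 532 and 595 CPM in LIM1215-parental. Its levels were 521, 464 and 495 CPM in LIM1215-R1 and 604, 571 and 545 CPM in LIM1215-R2. The libraries of LIM1215-R1 lay below all others, while those of LIM1215-R2 overlapped the parental ones. ITGA6 fell by 0.20 on the log2 scale in LIM1215-R1 (SE 0.0483, adjusted p = 0.00127, edgeR's quasi-likelihood test). The call was lost without parental replicate 3 (-0.17, adjusted p = 0.016), and with GC and length trends taken out the value was -0.13 (adjusted p = 0.000745). In LIM1215-R2 the log2 fold change was 0.01, with a 95% interval of -0.09 to 0.11 (adjusted p = 0.883).

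ITGAV (chromosome 2, 186590056 to 186680901), the alphaV chain, measured 64.4, 61.5 and 62.6 CPM in LIM1215-parental, 68.0, 54.8 and 63.7 CPM in LIM1215-R1 and 70.3, 66.2 and 55.1 CPM in LIM1215-R2. The groups overlapped throughout. The 95% interval of its log2 fold change ran from -0.18 to 0.14 in LIM1215-R1 and from -0.14 to 0.18 in LIM1215-R2, and neither passed (adjusted p = 0.903 and 0.864, edgeR's quasi-likelihood test).

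ITGB1 (chromosome 10, 32900318 to 32958230), the beta chain common to most of these receptors, measured 270.0, 241 and 269.9 CPM in LIM1215-parental. Its levels were 244, 204 and 228 CPM in LIM1215-R1 and 226, 221 and 203 CPM in LIM1215-R2. The libraries of LIM1215-R2 lay below all parental ones, and those of LIM1215-R1 overlapped them. ITGB1 fell by 0.21 on the log2 scale in LIM1215-R1 (SE 0.0584, adjusted p = 0.00578) and by 0.26 in LIM1215-R2 (SE 0.0585, adjusted p = 7.28e-04) in edgeR's quasi-likelihood test. The call in LIM1215-R1 was lost without parental replicate 1 (-0.18) or 3 (-0.18), LIM1215-R1 replicate 2 (-0.14) or 3 (-0.22), or LIM1215-R2 replicate 2 (-0.21), with an adjusted p between 0.0119 and 0.0482. It was also lost in the 6 libraries compared alone (-0.20, adjusted p = 0.0192) and with at least 10 counts required in every library (-0.20, adjusted p = 0.0118). In LIM1215-R2 it was lost without LIM1215-R2 replicate 3 (-0.22, adjusted p = 0.011).

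ITGB4 (chromosome 17, 75721459 to 75757818), the beta chain of hemidesmosomes, measured 777, 875 and 782 CPM in LIM1215-parental. It reached 1019.6, 1181 and 1084 CPM in LIM1215-R1 and 1169.6, 1135 and 1186 CPM in LIM1215-R2. Every resistant library lay above every parental one. The log2 fold change was 0.43 (SE 0.0473, adjusted p = 2.62e-08, edgeR's quasi-likelihood test) in LIM1215-R1 and 0.52 (SE 0.0473, adjusted p = 8.11e-10) in LIM1215-R2. With GC and length trends taken out these were 0.25 and 0.38 and still passed. The canonical transcript of ITGB4 had the highest GC content of the 10 members (63.6%), and replicate 2 of LIM1215-parental and of LIM1215-R1 had the highest ITGB4 and the lowest ITGA6 (42.5% GC) of their groups. The part of GC content in these changes was not tested beyond that fit.

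ITGB5 (chromosome 3, 124761948 to 124901418), a partner of alphaV, measured 63.8, 70.2 and 61.3 CPM in LIM1215-parental, 56.6, 56.5 and 57.2 CPM in LIM1215-R1 and 46.3, 47.0 and 45.6 CPM in LIM1215-R2. The groups did not overlap, and the order fell from LIM1215-parental over LIM1215-R1 to LIM1215-R2. ITGB5 fell by 0.49 on the log2 scale in LIM1215-R2 (SE 0.0617, adjusted p = 3.22e-07, edgeR's quasi-likelihood test). In LIM1215-R1 the value was -0.19 (SE 0.0606, adjusted p = 0.0127), which did not pass. It passed without parental replicate 3 (-0.24, adjusted p = 0.00855), with total counts as the only scaling (-0.23, adjusted p = 0.00345) and with GC and length trends taken out (-0.30, adjusted p = 4.03e-06).

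ITGB6 (chromosome 2, 160099671 to 160200272), the epithelial partner of alphaV, measured 4.07, 5.20 and 5.46 CPM in LIM1215-parental. Its levels were 9.81, 9.10 and 10.1 CPM in LIM1215-R1 and 7.37, 6.87 and 6.14 CPM in LIM1215-R2. The groups did not overlap, with LIM1215-R2 between the others. The log2 fold change was 0.98 (SE 0.136, adjusted p = 1.50e-06, edgeR's quasi-likelihood test) in LIM1215-R1. In LIM1215-R2 it was 0.47 (SE 0.143, adjusted p = 0.0118), which did not pass, and it passed without a filter on low counts (0.48, adjusted p = 0.00989) and with GC and length trends taken out (0.49, adjusted p = 0.00413). Exons of ENSG00000285155 overlap ITGB6 on the same strand, so reads there could not be assigned with certainty.

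ITGB8 (chromosome 7, 20329766 to 20415754), another partner of alphaV, measured 7.67, 7.66 and 7.98 CPM in LIM1215-parental, 8.40, 7.09 and 7.19 CPM in LIM1215-R1 and 11.8, 12.1 and 11.2 CPM in LIM1215-R2. The libraries of LIM1215-R2 lay above all others, and those of LIM1215-R1 overlapped the parental ones. The log2 fold change was 0.59 (SE 0.112, adjusted p = 1.46e-04, edgeR's quasi-likelihood test) in LIM1215-R2 and -0.04 in LIM1215-R1, with a 95% interval of -0.29 to 0.21 (adjusted p = 0.846).

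**Figure D2:**
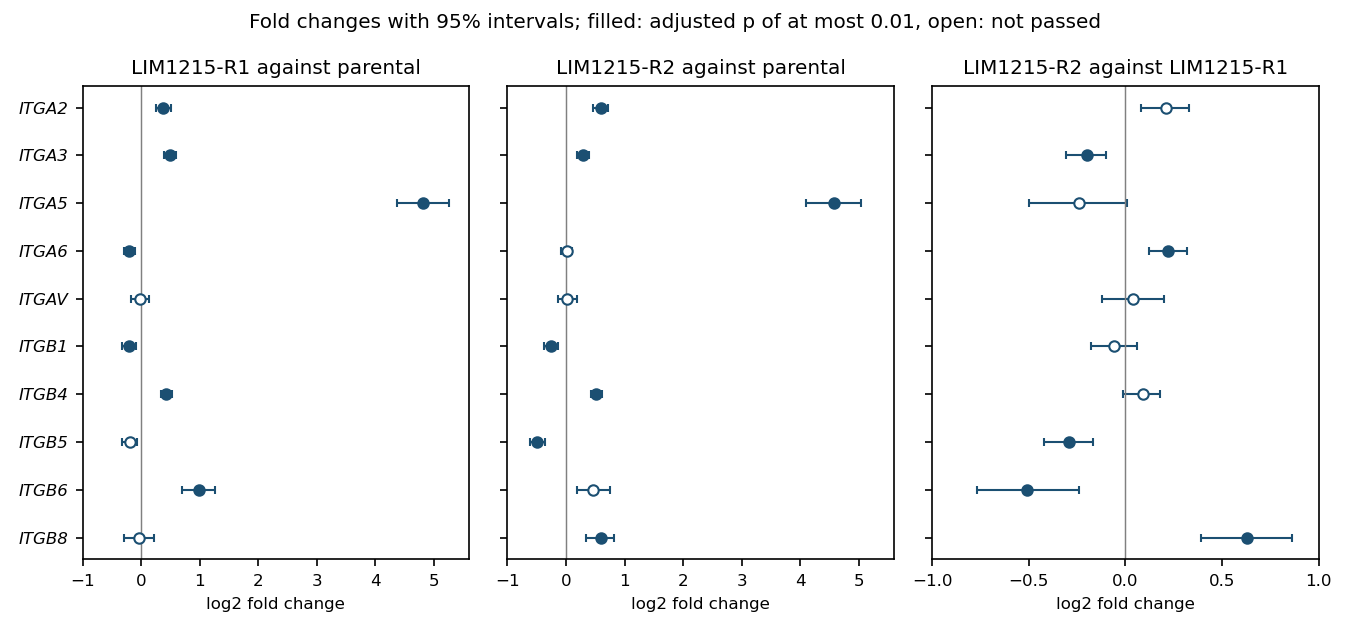
Log2 fold changes of the 10 integrin genes with 95% intervals for LIM1215-R1 and LIM1215-R2 against LIM1215-parental and for LIM1215-R2 against LIM1215-R1, where the axis is narrower. Filled points passed an adjusted p of at most 0.01 and open points did not. ITGA5 stands at 4.81 and 4.57 against LIM1215-parental, and no other member exceeds 0.98.

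Between the resistant lines, ITGA6 (log2 fold change 0.22, adjusted p = 0.00257) and ITGB8 (0.63, adjusted p = 3.13e-04) were higher in LIM1215-R2, while 3.39% of all genes were. ITGA3 (-0.20, adjusted p = 0.00629), ITGB5 (-0.29, adjusted p = 0.00168) and ITGB6 (-0.51, adjusted p = 0.00841) were lower in edgeR's quasi-likelihood test, as were 3.77% of all genes. The other 5 members did not pass. The median log2 fold change was -0.01 over the members and -0.001 over all genes. ITGA5 differed by -0.24, with a 95% interval of -0.50 to 0.01 (adjusted p = 0.223), so a difference of that size between the lines was not detectable. No member was a DEG here by edgeR's quasi-likelihood test or by DESeq2 (0 of 10 each), against 0.764% of all genes, although 6 of the 10 had an unadjusted p under 0.05.

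Of these 5 calls between the resistant lines, 4 were lost when certain single libraries were left out. ITGB8 passed in each of the 9 such fits. ITGB6 lost its call without any 1 of the 6 resistant libraries (-0.44 to -0.57, adjusted p = 0.0104 to 0.0497, edgeR's quasi-likelihood test) and also in DESeq2 (adjusted p = 0.0188) and with total counts as the only scaling (adjusted p = 0.011). ITGA3 lost it without LIM1215-R1 replicate 2 (-0.17) or 3 (-0.20) or LIM1215-R2 replicate 1 (-0.18), 2 (-0.21) or 3 (-0.22), and with total counts only (-0.19, adjusted p = 0.0113). ITGA6 lost it without LIM1215-R1 replicate 2 (0.18) or 3 (0.22) or LIM1215-R2 replicate 1 (0.18) or 2 (0.22). ITGB5 lost it without LIM1215-R1 replicate 3 (-0.29) or LIM1215-R2 replicate 1 (-0.29). ITGA2, at 0.21 with an adjusted p = 0.0213 in edgeR's quasi-likelihood test, passed without LIM1215-R1 replicate 1 (0.25) or LIM1215-R2 replicate 3 (0.26) and without a filter on low counts (0.20). ITGB4, at 0.09 (adjusted p = 0.258), passed with GC and length trends taken out (0.13, adjusted p = 0.000785).

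**Figure D3:**
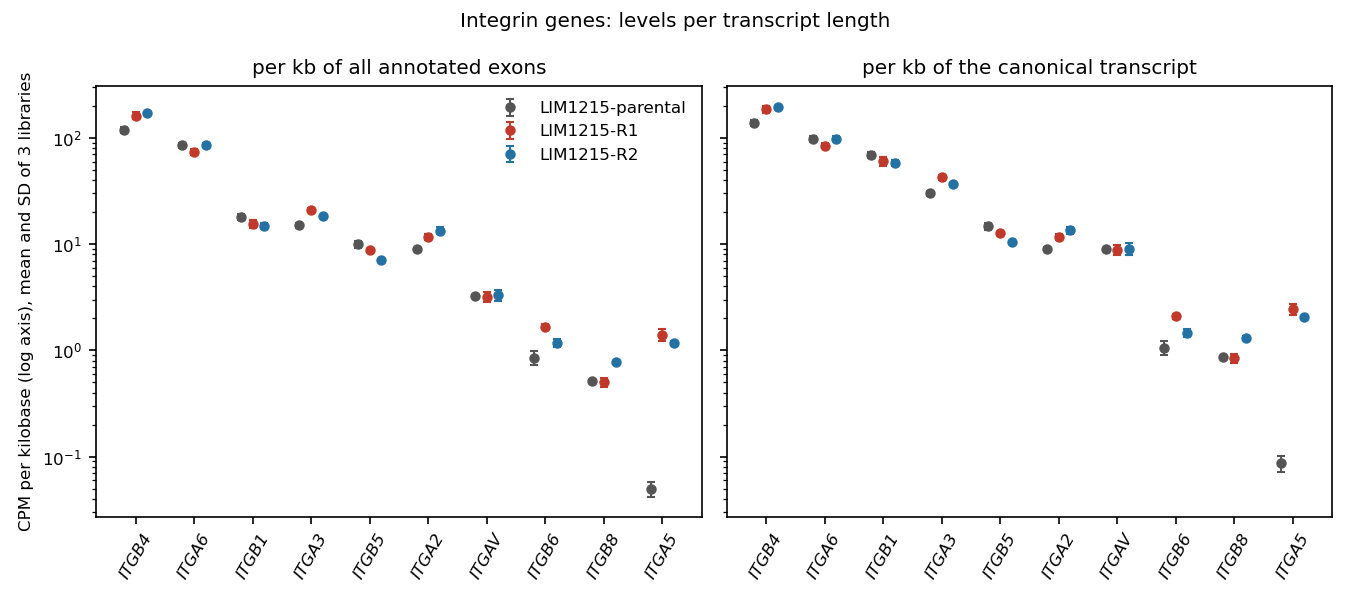
Levels of the integrin genes in CPM per kilobase (log axis, mean and SD of 3 libraries), divided by the length of all annotated exons (left) or of the canonical transcript (right). ITGB4 and ITGA6 lead in all 3 lines under either length, and ITGA5 moves from the last place in LIM1215-parental to a level between those of ITGAV and ITGB8 in the resistant lines.

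Levels of different members were compared per kilobase of all annotated exons. The order of the levels in LIM1215-parental was ITGB4 (120.0 CPM per kilobase), ITGA6 (85.1), ITGB1 (17.9), ITGA3 (15.0), ITGB5 (10.0), ITGA2 (8.92), ITGAV (3.25), ITGB6 (0.849), ITGB8 (0.513) and ITGA5 (0.0498), and no neighbours in this order overlapped in their libraries. In LIM1215-R1, ITGA5 reached 1.40 ± 0.174 CPM per kilobase, below ITGB6 (1.67 ± 0.0917) and above ITGB8 (0.499 ± 0.0481) without overlap (mean ± SD, n = 3). In LIM1215-R2, ITGA5 (1.18 ± 0.0415) and ITGB6 (1.17 ± 0.107) overlapped, and both lay above ITGB8 (0.770 ± 0.0305). ITGA3 stood above ITGB1 and ITGA2 above ITGB5 in both resistant lines, the reverse of their order in LIM1215-parental, and ITGB1 and ITGA2 overlapped in LIM1215-R2.

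On the length of the canonical transcript, chosen after seeing the data, 22 of the 30 places in the 3 lines were the same. The order in LIM1215-parental was kept, but ITGA2 (8.98 CPM per kilobase) and ITGAV (8.93) then overlapped. ITGB6 and ITGB8 overlapped on this length in LIM1215-parental and in LIM1215-R2. ITGB1, whose annotated exons add up to 14561 bases against 3735 in its canonical transcript, then stayed above ITGA3 in both resistant lines. In LIM1215-R1 the places of ITGA2 and ITGB5 and those of ITGA5 and ITGB6 were exchanged as well, with ITGA5 at 2.44 ± 0.302 CPM per kilobase overlapping ITGB6 at 2.09 ± 0.114. In LIM1215-R2 the places of ITGA5 (2.05 ± 0.0720) and ITGB6 (1.46 ± 0.134) were kept but no longer overlapped.

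The ratio of ITGB4 to ITGA6, both per kilobase of all annotated exons, was 1.42 ± 0.180 for the parental line, 2.20 ± 0.293 for LIM1215-R1 and 2.01 ± 0.125 for LIM1215-R2 (mean ± SD, n = 3). Its highest parental library was at 1.62 and its lowest resistant one at 1.91. The canonical transcripts of ITGB4 and ITGA6 differ in GC content (63.6% and 42.5%). With GC and length trends taken out, their log2 fold changes in LIM1215-R1 were 0.25 and -0.13, against 0.43 and -0.20 before. In LIM1215-R2 they were 0.38 and 0.05, against 0.52 and 0.01, so the rise of the ratio was smaller in that fit. Among the beta chains that pair with alphaV alone, ITGB5 held 88.0% ± 1.33 of the summed level of ITGB5, ITGB6 and ITGB8 per kilobase in the parental line, 80.1% ± 0.804 of it in LIM1215-R1 and 78.5% ± 0.991 in LIM1215-R2. ITGB6 held 7.48% ± 1.14, 15.4% ± 0.630 and 13.0% ± 0.931 in the same order, and ITGB8 held 4.53% ± 0.351, 4.58% ± 0.422 and 8.50% ± 0.148. Both resistant lines thus lay above LIM1215-parental in the share of ITGB6, and LIM1215-R2 alone in the share of ITGB8. These are shares of RNA and not of receptor pairs, and they were not tested.

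Of 16 other integrin subunits, 7 were tested, and 0 were higher and 2 lower in either comparison with LIM1215-parental, by edgeR's quasi-likelihood test and by DESeq2. In edgeR, 14.0% of all genes were higher and 13.4% lower in LIM1215-R1, and 12.3% and 11.6% in LIM1215-R2. With edgeR at an unadjusted p under 0.05, 0 were higher in LIM1215-R1 and 1 in LIM1215-R2. ITGA9, an alpha chain that binds tenascin and other ligands with beta1, had 156, 138 and 181 counts in the parental libraries, 3, 0 and 0 in LIM1215-R1 and 10, 6 and 4 in LIM1215-R2. On 3 counts in LIM1215-R1, the ratio was 153-fold lower, with an exact 95% counting interval of 52.1 to 746. ITGA9 fell by 4.50 on the log2 scale in LIM1215-R2 (SE 0.262, adjusted p = 8.45e-14, edgeR's quasi-likelihood test). ITGA9 was a DEG in both lines, and ITGA5 and ITGA9 are alpha partners of beta1 that moved in opposite directions in both lines. ITGA1, the collagen-binding alpha1 chain, went from 7.48 ± 1.43 CPM to 4.87 ± 0.581 and 4.85 ± 0.154 (n = 3 each), with log2 fold changes of -0.63 and -0.64 (adjusted p = 0.00148 and 0.00149). Its exons overlap those of PELO on the same strand, and its call was lost without parental replicate 3 in both lines (-0.53 and -0.54), without LIM1215-R1 replicate 2 in LIM1215-R1 (-0.54) and without parental replicate 1 in LIM1215-R2 (-0.59). ITGA7, ITGA10, ITGAE, ITGB2 and ITGB7 did not pass.

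Proteins that switch integrins between their inactive and active shapes formed a list of 17 genes, 16 of them tested. In LIM1215-R1, 5 rose and 2 fell (all genes: 14.0% and 13.4%), with a median log2 fold change of 0.05. In LIM1215-R2, 3 rose and 2 fell (all genes: 12.3% and 11.6%), with the same median. The 5 that rose in LIM1215-R1 became 3 without parental replicate 3 or LIM1215-R1 replicate 2. FERMT2, a kindlin that binds beta chains from inside the cell, had 44, 32 and 56 parental counts against 11, 9 and 10 in LIM1215-R1 and 4, 2 and 5 in LIM1215-R2. FERMT2 was the DEG of this list in both lines, with log2 fold changes of -2.07 (adjusted p = 1.63e-06) and -3.49 (adjusted p = 6.02e-09, edgeR's quasi-likelihood test). Its parental level was 2.62 CPM. FERMT1, another kindlin, moved the other way, from 157 CPM to 183 in LIM1215-R1 and 201 in LIM1215-R2. Its log2 fold changes were 0.23 and 0.36 (adjusted p = 3.6e-04 and 4.94e-07, edgeR's quasi-likelihood test). FERMT3, with 20 counts in all, did not pass. The list of 30 scaffold proteins and kinases of adhesion sites had 29 tested. Of these, 13 rose and 5 fell in LIM1215-R1 (median 0.20, all genes: 14.0% and 13.4%). In LIM1215-R2, 10 rose and 5 fell (median 0.08, all genes: 12.3% and 11.6%). Without parental replicate 3 or LIM1215-R1 replicate 3, 3 instead of 5 fell in LIM1215-R1. TNS4, a tensin that binds integrin beta chains, went from 487 ± 51.3 CPM to 1313 ± 97.1 and 1464 ± 28.2 (n = 3 each), with log2 fold changes of 1.43 and 1.59 (adjusted p = 8.04e-18 and 9.37e-19). NEDD9, a docking protein of focal adhesions, rose by 1.66 and 1.12 on the same scale (adjusted p = 6.13e-15 and 4.77e-11). PARVG, a parvin best known from blood cells, had 0 parental counts and 21 in LIM1215-R1, which is at least 7.23-fold higher against 3 counts over the group.

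Hemidesmosome proteins, tetraspanins, and CD47, SLC3A2 and BSG, which are neither, formed a list of 12 genes, all tested. Of these, 4 rose and 2 fell in LIM1215-R1 (median 0.04, all genes: 14.0% and 13.4%). SLC3A2 was among those that rose in both lines. In LIM1215-R2, 3 rose and 3 fell (median -0.09, all genes: 12.3% and 11.6%). No gene of this list was a DEG in either line by edgeR's quasi-likelihood test or by DESeq2, although 6 and 8 had an unadjusted p under 0.05. With GC and length trends taken out, 5 fell in LIM1215-R1 and 6 in LIM1215-R2. DST, a plakin that links hemidesmosomes to keratin filaments, changed by -0.92 (adjusted p = 1.45e-07) and -0.91 (adjusted p = 1.76e-07) on the log2 scale in edgeR's quasi-likelihood test. PLEC, another plakin of the list, rose from 760 CPM to 1053 and 1180 CPM. Its log2 fold changes were 0.47 and 0.64 (adjusted p = 3.28e-09 and 8.62e-12, same test). COL17A1, also of hemidesmosomes, was at -0.03 in LIM1215-R1 (adjusted p = 0.826) and -0.55 in LIM1215-R2 (adjusted p = 7.22e-06). TSPAN8, a tetraspanin of gut epithelium, rose by 0.67 and 0.57 (adjusted p = 6.32e-13 and 2.05e-11). CD82, another tetraspanin, was at 0.64 in LIM1215-R1 (adjusted p = 0.00577) and -0.50 in LIM1215-R2 (adjusted p = 0.0592). The CD82 call in LIM1215-R1 was lost without parental replicate 2 (0.62) or 3 (0.51) or LIM1215-R1 replicate 2 (0.45), in DESeq2 (adjusted p = 0.017), in the 6 libraries alone (adjusted p = 0.0113) and with the trends removed (adjusted p = 0.0327).

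Among the ligands, 8 of 10 laminin chains were tested, of which 3 rose and 1 fell in LIM1215-R1 (median 0.05, all genes: 14.0% and 13.4%). In LIM1215-R2, 2 rose and 2 fell (median -0.18, all genes: 12.3% and 11.6%). The number that fell in LIM1215-R1 was 2 without parental replicate 1 or LIM1215-R1 replicate 2. In LIM1215-R2 it was 1 without parental replicate 1 or LIM1215-R2 replicate 2 or 3, 4 without LIM1215-R1 replicate 1 or 2, with total counts as the only scaling or with the replicate block, and 6 with GC and length trends taken out. LAMA3, a chain of the laminin that alpha3 beta1 and alpha6 beta4 bind, rose by 1.35 on the log2 scale in LIM1215-R1 (adjusted p = 9.62e-11, edgeR's quasi-likelihood test) and by 0.77 in LIM1215-R2 (adjusted p = 5.67e-06). LAMB3, a beta chain of laminin, was at 0.20 (adjusted p = 0.00171) and -0.20 (adjusted p = 0.0021). The LAMB3 call was lost in LIM1215-R1 with the trends removed (0.01, adjusted p = 0.87) and without parental replicate 3 or LIM1215-R1 replicate 3 (0.17 each), and in LIM1215-R2 without parental replicate 1 (-0.19) or LIM1215-R2 replicate 2 (-0.20) or 3 (-0.18).

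Integrin ligands, most of them with an RGD sequence, and collagens formed a list of 23 genes with 16 tested. Of these, 2 rose and 4 fell in LIM1215-R1 (median 0.05, all genes: 14.0% and 13.4%). In LIM1215-R2, 0 rose and 5 fell (median -0.05, all genes: 12.3% and 11.6%). There, 2 were higher at an unadjusted p under 0.05 in edgeR and 0 were called higher by DESeq2. The 2 that rose in LIM1215-R1 became 1 without parental replicate 1 or 3 or LIM1215-R1 replicate 1 and with total counts as the only scaling, and 0 without LIM1215-R1 replicate 2. NPNT, nephronectin, a matrix ligand of alpha8 beta1, went from 54.6 ± 3.78 CPM to 2.74 ± 0.420 and 0.367 ± 0.280 (n = 3 each), with log2 fold changes of -4.32 (adjusted p = 5.28e-20) and -7.17 (adjusted p = 2.02e-21, edgeR's quasi-likelihood test). EDIL3, an RGD protein bound by alphaV integrins, changed by -4.71 and -4.48 (adjusted p = 7.26e-15 and 1.10e-14), and COL12A1, a collagen of fibril surfaces, by -3.23 and -3.84 (adjusted p = 2.11e-17 and 2.57e-18). VTN, vitronectin, was at -0.15 in LIM1215-R1 (adjusted p = 0.707) and fell by 1.61 in LIM1215-R2 (adjusted p = 1.08e-04). FN1, fibronectin, the main ligand of alpha5 beta1, had 0 counts in LIM1215-parental, 3, 2 and 3 in LIM1215-R1 and 0, 1 and 1 in LIM1215-R2, and neither comparison passed.

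A list on latent TGF-beta held TGFB1 and TGFB3, LTBP1, LTBP2, LTBP3 and LTBP4, and LRRC32 and NRROS. It had 8 genes with 7 tested. Of these, 3 rose and 2 fell in LIM1215-R1 (median 0.46, all genes: 14.0% and 13.4%). In LIM1215-R2, 2 rose and 2 fell (median 0.19, all genes: 12.3% and 11.6%). LTBP1, which stores latent TGF-beta in the matrix, went from 8.90 ± 0.164 CPM to 4.64 ± 0.549 and 0.644 ± 0.202 (n = 3 each), with log2 fold changes of -0.94 (adjusted p = 6.30e-06) and -3.78 (adjusted p = 2.42e-14, edgeR's quasi-likelihood test). LRRC32, which holds latent TGF-beta at the cell surface, had 1 parental count and 17 in LIM1215-R1, a ratio of 17.6 with an exact 95% counting interval of 2.75 to 734. Its call (adjusted p = 0.00766) was lost in DESeq2 (adjusted p = 0.0273) and without any 1 of the 6 libraries compared (adjusted p = 0.0107 to 0.0354).

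**Figure D4:**
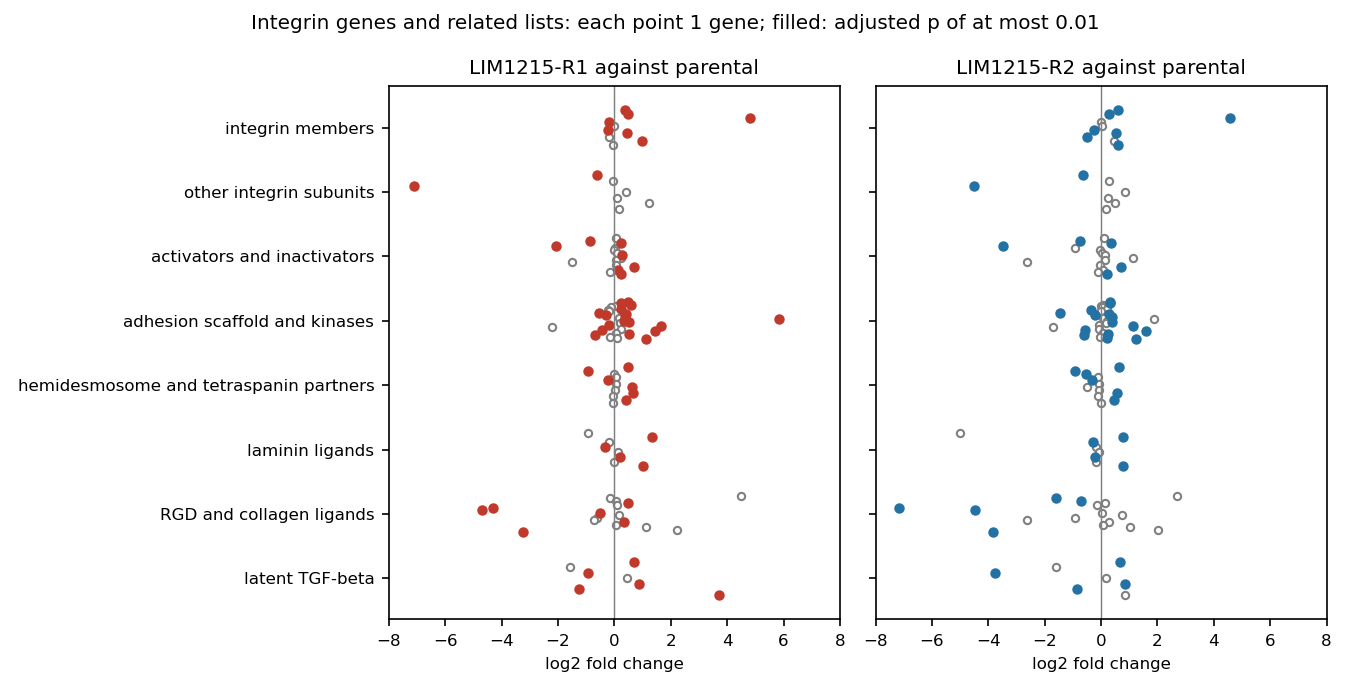
Log2 fold changes of both resistant lines against LIM1215-parental for the integrin members and 7 lists of related genes. Each point is 1 gene, and filled points passed an adjusted p of at most 0.01. Among the 10 integrin members, ITGA5 stands apart from a cluster within 1 log2 unit of 0, and fitted values of genes with few counts depend on the prior count.

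Around ITGA5, 14 genes within 500 kb were tested, and 4 rose and 2 fell in each resistant line, with a median log2 fold change of 0.48 in LIM1215-R1 and 0.74 in LIM1215-R2. Genes with few counts, such as HOXC5 and NCKAP1L, enter these medians. Of all genes tested, 14.0% rose and 13.4% fell in LIM1215-R1, and 12.3% rose and 11.6% fell in LIM1215-R2. ZNF385A, a zinc finger gene 4 kb away and the nearest tested neighbour, rose from 12.2 CPM to 37.5 and 28.7 CPM, with log2 fold changes of 1.63 and 1.24 (adjusted p = 5.31e-13 and 2.47e-10, edgeR's quasi-likelihood test). HOXC13 (2.18 and 1.79) and HOXC6 (0.93 and 0.76), homeobox genes of the HOXC cluster, rose as well. NFE2, a transcription factor of blood cells, rose from 2 parental counts to 46 in LIM1215-R1 and 16 in LIM1215-R2, ratios of 23.8 and 8.26 with exact 95% counting intervals of 6.22 to 202 and 1.94 to 74. The calls of the last 3 in LIM1215-R2 depended on single libraries. HOXC13 lost its call there without parental replicate 3 (1.20) or LIM1215-R2 replicate 1 (1.53). HOXC6 lost it in DESeq2 and without parental replicate 1 (0.78) or 2 (0.59), LIM1215-R1 replicate 3 (0.76) or any LIM1215-R2 library (0.74 to 0.79). NFE2, with a fitted 2.82 and an adjusted p = 0.00913 in edgeR's quasi-likelihood test, lost it in DESeq2, in the 6 libraries alone, with the replicate block and without any 1 library other than LIM1215-R2 replicate 3. CBX5 (-0.45 and -0.29) and HNRNPA1 (-0.30 and -0.27) fell. Over all members, 110 neighbour entries included 17 that rose and 15 that fell in LIM1215-R1 and 15 and 15 in LIM1215-R2, with a median log2 fold change of 0 in LIM1215-R1 and -0.02 in LIM1215-R2. As shares of the entries, these counts lay near the shares of all genes.

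**Figure D5:**
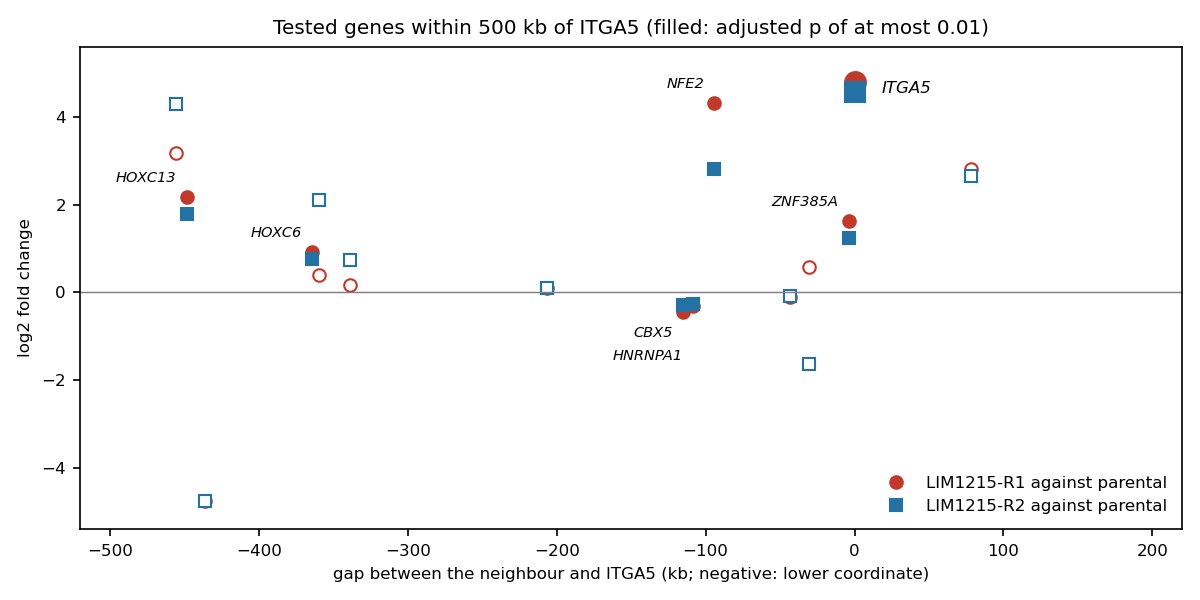
Log2 fold changes of tested genes within 500 kb of ITGA5, by their distance from ITGA5 in kilobases (negative at lower coordinates). Circles are LIM1215-R1 and squares LIM1215-R2 against LIM1215-parental, filled where the adjusted p was at most 0.01. ITGA5 has the highest value, and ZNF385A beside it stands at 1.63 and 1.24, while NFE2 and the open points above 2 are genes with few counts, whose fitted values depend on the prior count.

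Likeness to ITGA5 over the 9 libraries was measured as the root mean square difference of log2 CPM centred on each gene's mean, among 12562 genes with a mean of at least 1 CPM. KLK7, a secreted serine protease, was closest at 0.197. It had 0 parental counts against 97 in LIM1215-R1, at least 33.4-fold higher against 3 counts over the group, and 79 in LIM1215-R2, at least 27.2-fold higher. SKAP1, an adaptor of adhesion signalling in T cells, followed at 0.226, with 1 parental count against 165 and 143. TGFBI, a matrix protein that integrins bind, came next at 0.257 and rose from 0.798 ± 0.156 CPM to 27.3 ± 0.837 and 22.8 ± 0.577 (n = 3 each). The 9 libraries fall into 3 lines, so these genes share with ITGA5 a low level in the parental libraries and a high level in the resistant ones.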

How the data were processed

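Stranded poly(A) libraries of the parental and both resistant lines were sequenced, 3 per line. Alignment by the authors was with STAR (hg38), and htseq-count, set to the reverse strand, gave the count of each gene (HTSeq 0.9.1 in the submitters' processing notes). The deposited values are raw counts without normalization. The gene annotation behind the counts is not given in the sources used here.

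R 4.3.3 and edgeR 4.0.16 were used. Genes whose counts summed to at least 10 were kept, libraries were scaled by TMM, and 1 quasi-likelihood fit with 3 groups and no other term gave the 3 comparisons, and p-values were adjusted over 19102 genes by the Benjamini-Hochberg method. Total counts of 13737416 to 18725014 per library set the precision of low genes, and counting intervals and floors cover counting error only. SEs were derived from the test statistic. The script was tested on simulated counts. Alternatives were other filters, DESeq2 size factors, total counts only, DESeq2 1.42.0 with and without lfcShrink, the 6 libraries of a comparison alone, the replicate block and each library left out. Fits with GC and length trends taken out, and levels per canonical transcript, were chosen after seeing the data. GC content was known for 86.3% of the genes tested.

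Positions and promoters came from RefSeq, and transcript lengths, exon overlaps and GC content from GENCODE. Named genes were the members, every other tested integrin subunit, the DEGs of each list or else its 3 largest called changes, the 3 genes most like a member that was a DEG, and neighbours on the chromosome. FN1, FERMT1, FERMT3, PLEC, COL17A1, SLC3A2 and the neighbours were picked after their values were seen. The result of a gene that this rule names is not reported here. The members and the lists were chosen with earlier results of these data known.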

Additional observations from a re-analysis of the deposited data

Results flagged for a closer look

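The changes against LIM1215-parental differed between LIM1215-R2 and LIM1215-R1 for these genes, tested as the difference of the lines' log2 fold changes (LIM1215-R2 minus LIM1215-R1) in edgeR's quasi-likelihood test, adjusted over every gene tested by the Benjamini-Hochberg method. In this fit that is the same comparison as LIM1215-R2 against LIM1215-R1, so for the integrin members the values repeat those given above and are no further test. Among the integrin members the differences were -0.20 for ITGA3 (adjusted p = 0.00629), 0.22 for ITGA6 (adjusted p = 0.00257), -0.29 for ITGB5 (adjusted p = 0.00168), -0.51 for ITGB6 (adjusted p = 0.00841) and 0.63 for ITGB8 (adjusted p = 0.000313). Of these 5, only the call of ITGB8 passed with every 1 of the 9 libraries left out in turn.

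Among the related genes named that passed, the largest differences were -2.85 for NPNT (adjusted p = 4.16e-07) and -2.84 for LTBP1 (adjusted p = 8.39e-10). VTN differed by -1.46 (adjusted p = 0.00156) and CD82 by -1.14 (adjusted p = 0.000113). The VTN call was lost without LIM1215-R1 replicate 3 (-1.35) or LIM1215-R2 replicate 1 (-1.36) or 2 (-1.09). NEDD9 differed by -0.54 (adjusted p = 1.50e-05), and the laminin chains LAMA3 and LAMB3 by -0.58 and -0.39 (adjusted p = 0.00021 and 1.38e-06). ZNF385A, the neighbour of ITGA5, differed by -0.39 (adjusted p = 0.00475), and its call was lost without LIM1215-R1 replicate 2 (-0.33) or LIM1215-R2 replicate 1 (-0.32) or 2 (-0.33). Their causes were not tested.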

How the results depend on the processing

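Of the fits of single members in the alternatives other than leaving out a library, 252 kept their call, 6 lost it and 9 gained it, and of those that left out a library, 243 kept it, 24 lost it and 3 gained it. No direction of a called member reversed. With at least 10 counts required in every library, 1 member instead of 2 was lower in LIM1215-R1 and the number of DEGs fell from 1 to 0 in LIM1215-R1 and to 0 in LIM1215-R2, since ITGA5 with 6 parental counts was not tested there. In the 6 libraries alone, 1 member was lower in LIM1215-R1. With total counts only, 1 member instead of 3 was lower in LIM1215-R2 than in LIM1215-R1. With each library left out, 1 to 2 members were lower in LIM1215-R1 and 1 to 2 in LIM1215-R2 against LIM1215-parental, and between the resistant lines 1 to 3 were higher and 0 to 3 lower in LIM1215-R2. The cause was not tested where the fit alone changed. The log2 fold change of ITGA5 ranged from 3.27 to 4.93 in LIM1215-R1 and from 3.04 to 4.68 in LIM1215-R2, lowest with lfcShrink. Among the other lists, requiring at least 10 counts in every library, which leaves fewer genes tested, took the number that fell from 2 to 1 in both lines for the other integrin subunits, the activators and the latent TGF-beta genes, and from 4 to 2 and from 5 to 2 for the RGD and collagen ligands. The laminin chains that fell in LIM1215-R1 went from 1 to 2 without a filter on low counts, with total counts only, with the replicate block and with GC and length trends taken out.

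Whether the replicate numbers pair the libraries cannot be decided from correlations, since the ranges of same-number and different-number pairs overlapped. Deviations of libraries with the same number correlated between -0.106 and 0.274 over 9 pairs, and those with different numbers between -0.265 and 0.191 over 18. The highest value, 0.274, was that of parental replicate 2 with LIM1215-R1 replicate 2. With the replicate block, ITGB5 in LIM1215-R1 (-0.19, adjusted p = 0.00574), ITGB6 in LIM1215-R2 (0.47, adjusted p = 0.00772) and ITGA2 between the resistant lines (0.21, adjusted p = 0.00275) passed in edgeR's quasi-likelihood test, and no other member changed its call.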
